A study of Mus musculus with 21 samples.

Results

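The 10 genes studied here are ones that cells switch on quickly when stimulated or stressed, measured in male mouse germ cells with and without Tex15: Fos, Fosb, Jun, Junb, Egr1, Atf3, Dusp1, Ier2, Hmox1 and Hspa1b. They were chosen by name, and each of the 10 names had a row among the 24495 gene rows of the 3 count tables. The germ cells carried an Oct4-GFP reporter, were isolated from testes by flow sorting for its green fluorescence, and came from crosses between Tex15 heterozygotes on a mixed strain background. Heterozygous cells (Tex15+/-, HT) and knockout cells (Tex15-/-, KO) were sequenced at embryonic days 16.5 and 18.5 (E16.5 and E18.5) and after birth, and wild-type cells (WT) after birth only. The postnatal age is written both as day 2 and as 2.5 in the labels and is called D2.5 here. Each of the 7 groups held 3 libraries that the series describes as biological triplicates; whether a library pooled several animals is not stated in the labels.

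Immediate early genes are transcribed within minutes of a signal, without new protein synthesis, by factors already bound at their promoters. Fos and Jun proteins pair to form AP-1, a transcription factor, and the early genes also encode feedback regulators that shut the signal off. Heat shock chaperones and Hmox1 belong to slower stress programmes, driven by heat shock factor and by NRF2 respectively. In cells that are dissociated and sorted, the same genes can also respond to the handling itself, and no unsorted cells were analysed here.

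Promoter sequences show what the members share and where they differ before any expression value is considered. RefSeq promoters (GRCm38.p6, 250 bases before to 50 after the transcription start) matched 7 of the 10 members; Egr1, Hmox1 and Ier2 had no entry. Motifs were searched on both strands. The TATA box was read as TATAAA and the AP-1 site as TGACTCA. The cAMP response element was read as TGACGTCA, which holds its own core, TGACG, also searched alone. The heat shock element was read as GAANNTTC, the antioxidant element as TGACNNNGC and the Egr site as GCGNGGGCG, and the CArG box of serum response factor was searched by its consensus. The promoters of 4 members are printed because their genes changed with age in the comparisons that follow, with every matched motif letter in capitals. The Fos promoter lies at chr12:85473640-85473939 on the plus strand, Fosb at chr7:19309996-19310295, Dusp1 at chr17:26508423-26508722 and Hspa1b at chr17:34959189-34959488, the latter 3 on the minus strand.
Fos: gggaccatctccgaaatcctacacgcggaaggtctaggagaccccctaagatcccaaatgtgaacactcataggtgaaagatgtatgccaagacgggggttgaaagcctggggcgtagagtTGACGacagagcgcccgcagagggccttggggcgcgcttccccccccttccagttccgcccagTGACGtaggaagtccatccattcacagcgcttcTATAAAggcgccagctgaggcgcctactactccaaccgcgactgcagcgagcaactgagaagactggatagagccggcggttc
Fosb: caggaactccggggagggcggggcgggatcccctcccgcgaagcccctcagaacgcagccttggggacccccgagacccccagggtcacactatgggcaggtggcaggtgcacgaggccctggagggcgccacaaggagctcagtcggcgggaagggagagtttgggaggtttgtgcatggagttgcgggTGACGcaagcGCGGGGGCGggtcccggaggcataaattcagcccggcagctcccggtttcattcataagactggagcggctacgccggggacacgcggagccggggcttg
Dusp1: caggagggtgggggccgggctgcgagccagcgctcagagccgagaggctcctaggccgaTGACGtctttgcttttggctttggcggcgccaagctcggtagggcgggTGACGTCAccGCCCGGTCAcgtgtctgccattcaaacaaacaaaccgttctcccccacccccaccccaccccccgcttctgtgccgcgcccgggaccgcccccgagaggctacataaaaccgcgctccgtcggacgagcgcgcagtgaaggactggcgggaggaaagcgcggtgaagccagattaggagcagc
Hspa1b: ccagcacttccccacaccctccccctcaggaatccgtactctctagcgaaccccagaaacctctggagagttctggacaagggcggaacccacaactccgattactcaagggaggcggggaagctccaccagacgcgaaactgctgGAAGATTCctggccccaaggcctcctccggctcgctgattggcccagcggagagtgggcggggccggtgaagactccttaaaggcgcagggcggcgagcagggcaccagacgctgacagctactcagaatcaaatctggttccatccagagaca
The capitals in Fos mark 2 TGACG cores that begin 129 and 66 bases before the start, and TATAAA at 33 bases before it. In Fosb they mark a TGACG core 60 bases before the start and, 50 bases before it, the Egr site. Dusp1 carries a TGACG core at 191 bases, the full TGACGTCA at 143 bases, which also contains the core on both strands, and the antioxidant letters on the opposite strand at 133 bases. Hspa1b carries the heat shock element at 104 bases, whose pattern, GAANNTTC, reads the same on both strands.

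The TGACG core was found in 5 of the 7 promoters (Atf3, Dusp1, Fos, Fosb and Junb), and in 20.8% of all 32851 RefSeq promoters of that length. The heat shock element was found in Hspa1b and Jun, and in 7.86% of all promoters. TATAAA was found in Fos, 33 bases before the start, and in Junb, where it begins at the annotated start itself (13.6% of all). The full cAMP response element was found in Dusp1 alone of the 7 (1.79% of all). The Egr site was found in Fosb (5.55% of all) and the antioxidant letters in Dusp1 (12.4% of all). Neither TGACTCA (5.2% of all) nor the CArG box (1.63% of all) occurred in any of the 7 windows, which says only that those letters are not in these 300-base stretches. A match describes letters and was not tested as a binding site.

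Gene rows held 6063632 to 11884109 counts per library, fewest at D2.5 (6063632 to 7391401). In those same D2.5 libraries 7227 to 8279 genes were at 0, compared with 2359 to 2687 at E18.5 and 3410 to 5815 at E16.5. Levels are given as CPM, gene counts scaled to the library's gene total after TMM correction, and 3 counts corresponded to 0.224 to 0.556 CPM. CPM is not divided by gene length, so levels are compared between groups and not between genes. Tex15 was between 741 and 2083 CPM in each HT library and between 2.9 and 23.6 CPM in each KO library. The germ cell markers Ddx4 (262 to 1096 CPM) and Dazl (409 to 4686 CPM) were present in each library, while Pou5f1, the gene of Oct4 itself, was at 44.3 to 155 CPM in the embryonic libraries and at 0 to 9.61 CPM at D2.5. The 8 Leydig cell markers summed to 12.8 to 55.8 CPM per library. Of these, Star, the steroidogenic acute regulatory protein, was at 7.68 to 30.7 CPM, and Insl3 did not exceed 0.78 CPM and was at 0 at D2.5.

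Fos, the AP-1 subunit most often used as a mark of recent stimulation, was low before birth. At E16.5 its level was 6.95, 2.3 and 2.98 CPM in HT replicates 1 to 3 and 5.62, 4.94 and 4.87 CPM in KO. At E18.5 it was 7.19, 5.98 and 4.5 CPM in HT and 11.6, 7.68 and 2.07 CPM in KO. The embryonic groups overlapped at both ages. At D2.5 Fos was 17.3, 23.2 and 9.94 CPM in WT, 17.6, 4.88 and 8.43 CPM in HT and 28.7, 22.8 and 22.4 CPM in KO. The 3 KO libraries lay above the 3 HT libraries at D2.5, and WT replicate 2 lay among them. Ordered by group mean, Fos ran from 4.08 CPM in HT at E16.5 (SD 2.51, n = 3) to 24.6 CPM in KO at D2.5 (SD 3.52, n = 3), and each neighbour in that order overlapped the next.

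Fosb, a partner of Jun, was also lowest at E16.5. It was 3.57, 1.95 and 6.72 CPM in HT and 3.54, 3.58 and 6.5 CPM in KO at E16.5. The values at E18.5 were 10.2, 8.14 and 6.66 CPM in HT and 13.5, 12 and 3.57 CPM in KO. The HT libraries at E18.5 ranged from 6.66 to 10.2 CPM and overlapped the E16.5 libraries only narrowly, at 6.72 CPM. At D2.5 Fosb was 16.4, 9.76 and 11 CPM in WT, 32.3, 17.8 and 27.9 CPM in HT and 47.1, 68.1 and 24.4 CPM in KO. Each HT and each KO library at D2.5 was above each WT library, and the HT and KO ranges overlapped.

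Jun, the subunit that can pair with itself as well as with Fos proteins, varied widely between libraries of a group. Its level was 40.6, 23.3 and 15.6 CPM in HT and 22.1, 24.8 and 11.4 CPM in KO at E16.5. The E18.5 libraries held 16.9, 12.2 and 9.47 CPM in HT and 30.7, 13.9 and 7.8 CPM in KO. At D2.5 it was 13.1, 9.2 and 44 CPM in WT, 29.6, 25.8 and 15.3 CPM in HT and 39.7, 41.2 and 13.5 CPM in KO. All 7 group means, from 12.9 to 31.5 CPM, overlapped their neighbours. Junb, a subunit that often restrains Jun, was close to the limit of detection, with a highest value of 4.08 CPM (22 counts, KO replicate 2 at D2.5) and 0 counts in HT replicate 1 and KO replicate 3 at D2.5. It did not pass the filter on low counts in the E16.5 and D2.5 fits, and it overlaps Prdx2 on the other strand. No source used here says whether the counting used strand, so reads of the pair cannot be told apart.

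Egr1, a zinc-finger transcription factor induced through serum response factor, separated the postnatal from the embryonic libraries completely. At E16.5 it was 125, 86.4 and 57.3 CPM in HT and 89.7, 78 and 66.1 CPM in KO. At E18.5 it was 68.9, 57.8 and 69.1 CPM in HT and 97, 73.6 and 43.4 CPM in KO. After birth the values were 436, 432 and 481 CPM in WT, 494, 389 and 526 CPM in HT and 700, 572 and 595 CPM in KO. The lowest postnatal library (389 CPM) was thus above the highest embryonic one (125 CPM), and the 3 KO libraries were above the other 6 at D2.5. In the order of means, the step from 89.5 CPM (HT at E16.5) to 450 CPM (WT at D2.5) was 10.62 times the larger SD of the 2 groups.

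Atf3, a stress-induced repressor of the ATF family, was at most 8.74 CPM in any library. Its lowest and highest values were both at D2.5, with 0.363, 0.153 and 6.19 CPM in HT, where replicates 1 and 2 held 2 counts and 1 count. WT libraries held 6, 1.84 and 8.74 CPM and KO libraries 2.89, 6.86 and 4.62 CPM at that age. The embryonic libraries ranged from 1.45 to 4.32 CPM, and all 7 groups overlapped their neighbours in the order of means.

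Dusp1, a phosphatase that inactivates the kinases that induce early genes, held similar levels within most groups. It was 47.7, 31.5 and 33.8 CPM in HT and 28.1, 31.4 and 22.7 CPM in KO at E16.5, with each KO library just below each HT library. The values at E18.5 were 57.6, 45 and 59.6 CPM in HT and 63.3, 52.8 and 40.9 CPM in KO. The D2.5 libraries held 65.4, 53.6 and 56.7 CPM in WT, 78.8, 76.1 and 82 CPM in HT and 103, 126 and 52.3 CPM in KO. The HT libraries lay above WT without overlap, and the KO libraries spanned both. Dusp1 overlaps Ergic1 on the other strand, with the same limit on strand as for Junb.

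Ier2, an early gene whose product acts in transcription, was at most 11.1 CPM in all libraries but 1. The exception was HT replicate 1 at E16.5, at 20.3 CPM (210 counts), beside 3.28 and 1.06 CPM in HT replicates 2 and 3 and 2.25, 1.7 and 0.956 CPM in KO. At E18.5 Ier2 was 0.822, 2.32 and 2.97 CPM in HT and 2.34, 1.99 and 0.939 CPM in KO. At D2.5 it was 5.29, 5.71 and 1.54 CPM in WT, 3.27, 1.22 and 2.58 CPM in HT and 5.05, 11.1 and 3.14 CPM in KO. Apart from that single library, every group overlapped its neighbour.

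Hmox1, the enzyme that breaks down haem under oxidative stress, had its highest group means at E16.5. It was 127, 136 and 99.1 CPM in HT and 134, 149 and 90.3 CPM in KO at that age. The E18.5 libraries held 38.2, 58 and 72.7 CPM in HT and 44.3, 51.7 and 40.8 CPM in KO, below each E16.5 library. After birth the values were 59.6, 112 and 63.6 CPM in WT, 63.5, 64.8 and 78.2 CPM in HT and 119, 84.2 and 132 CPM in KO. The KO libraries were above the HT libraries at D2.5, with WT replicate 2 inside the KO range.

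Hspa1b, an inducible chaperone of the HSP70 family and the classic heat shock factor target, had lower levels at each later age. It was 11.1, 15.7 and 13.3 CPM in HT and 12.8, 19.3 and 12 CPM in KO at E16.5. At E18.5 it was 5.44, 3.66 and 3.13 CPM in HT and 3.12, 5.78 and 3.95 CPM in KO. The D2.5 libraries held 2.12, 1.1 and 2.23 CPM in WT, 2, 1.22 and 0.344 CPM in HT and 2.53, 1.48 and 0.37 CPM in KO, which is 2 to 14 counts per library. The 3 ages did not overlap, while the genotypes within each age did. Its near-identical neighbour Hspa1a can share reads with it, and no source used here says how such reads were handled. The sum of both genes was 19.1 to 34 CPM at E16.5, 6.35 to 10.1 CPM at E18.5 and 0.688 to 28 CPM at D2.5. The value of 28 CPM came from HT replicate 1, where Hspa1a had 143 counts (26 CPM) and Hspa1b 11 counts; the sum in each other D2.5 library was at most 7.36 CPM.

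**Figure D1:**
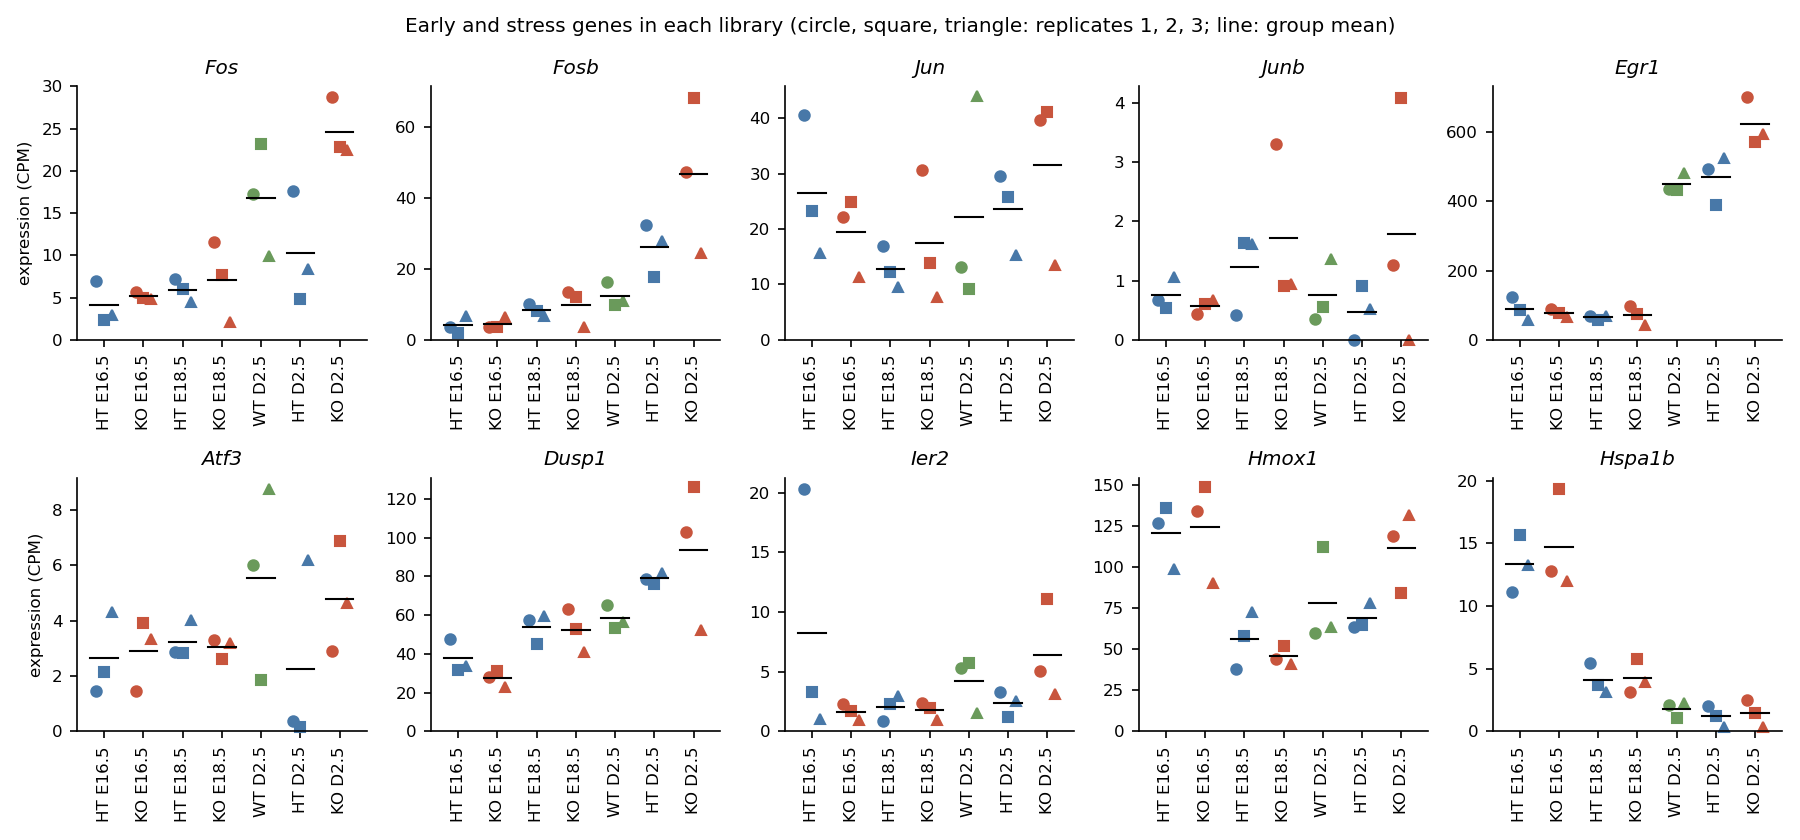
Expression of the 10 genes in CPM (vertical axes, from 0, different for each gene) in the 7 groups (horizontal axes); each point is 1 library, its shape the replicate number, and the line the group mean. Egr1 lies between 389 and 700 CPM in the D2.5 libraries and at most at 125 CPM before birth, Hspa1b steps down at each age, and Ier2 has 1 high library at E16.5.

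The comparison of KO with HT within an age asks whether loss of Tex15 changes these genes. At E16.5 none of the 9 members tested passed (adjusted p under 0.05) by edgeR, DESeq2 or limma-voom. In edgeR 0.00618% of 16185 genes passed (Tex15 alone), and DESeq2 called 6 genes. No member had an unadjusted p under 0.05 in edgeR (1.17% of all genes did). Ier2 had the farthest fitted value, a log2 fold change of -2.30 (SE 1.02, adjusted p = 0.9763), and it was -0.39 without HT replicate 1. Dusp1 was at -0.45 (SE 0.22, adjusted p = 0.9763), and it was the only member whose groups did not overlap, beside 6.26% of all genes. Fos was at 0.35 (SE 0.47, adjusted p = 0.9763). HT replicate 1 held the highest value of its group for 5 of the 10 members (Fos, Jun, Egr1, Dusp1 and Ier2). It did so for 56.3% of genes with a mean log2 CPM of at least 3. Its 10 stromal and peritubular markers summed to 559 CPM, of which 94.6% was Ptch1, a Hedgehog receptor (529 CPM, beside 106 to 265 CPM in the other 5 libraries). The other 9 summed to 30.4 CPM there, below the 75.5 and 123 CPM of HT replicates 2 and 3 and the 77.6 to 131 CPM of KO. Sertoli cell markers were likewise lowest in that library, at 23.1 CPM beside 53.8 to 85.7 CPM in the others. The part of these cells in the early gene values was not tested.

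At E18.5 none of the 10 members passed by any of the 3 tools, beside 2.14% of 18199 genes in edgeR, and none had an unadjusted p under 0.05 (8.12% of all genes). The members' log2 fold changes ran from -0.31 for Hmox1 (SE 0.21, adjusted p = 0.8335) to 0.44 for Jun (SE 0.37, adjusted p = 0.9044), and Fos was at 0.27 (SE 0.42, adjusted p = 0.9692). No member's groups were free of overlap (13.7% of all genes were). The KO libraries differed widely among themselves. KO replicate 1 was the highest of its group for 8 of the 10 members (39.8% of genes with a mean log2 CPM of at least 3). KO replicate 3 was the lowest for 7 (26.8% of those genes). Without KO replicate 1, Jun went to -0.23 and Fos to -0.25. The summed macrophage and white blood cell markers were 67 to 82.3 CPM in KO and 30 to 33.7 CPM in HT at this age, and their part was not tested. Of 6 of those markers tested, 2 rose in KO: Mrc1, the macrophage mannose receptor (1.82, SE 0.18, adjusted p = 6.268e-05), and Adgre1, which encodes F4/80 (1.43, SE 0.27, adjusted p = 0.008834). Mrc1 made up most of the KO sums, at 48.1 to 56.3 CPM beside 11.2 to 16.8 CPM in HT. Cd68, another marker of that list, overlapped between the groups (3.12 to 8.31 CPM in KO and 5.55 to 7.62 CPM in HT). Ptprc, a marker of white blood cells in general, was at 3.34 to 4.04 CPM in KO and 2.36 to 2.69 CPM in HT. Its groups did not overlap (13.7% of all genes), but it was not among the 2 markers that passed. The endothelial receptor Tek also rose (0.87, SE 0.18, adjusted p = 0.01665), and Pou5f1, whose reporter was used for the sort, fell by 0.81 (SE 0.18, adjusted p = 0.03068).

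At D2.5 the members lay higher in KO than in HT by fitted value, without a call. None of the 9 tested passed in edgeR, beside 0.153% of 14367 genes, nor in DESeq2 or limma-voom. An unadjusted p under 0.05 was found for 3 members (7.21% of all genes), and the groups of the same 3 did not overlap (11.7% of all genes). These were Fos, with a log2 fold change of 1.27 (SE 0.56, adjusted p = 0.6161), Hmox1, at 0.70 (SE 0.30, adjusted p = 0.5854), and Egr1, at 0.40 (SE 0.16, adjusted p = 0.5662). Fosb was at 0.84 (SE 0.45, adjusted p = 0.7371) and Ier2 at 1.44 (SE 0.99, adjusted p = 0.8223). As a description, all 9 fitted values were above 0, with a median of 0.70, while 49.7% of all genes were above 0 and their median was -0.01. Junb, the member not tested, is not among the 9. The 5 lists of related genes described below also had medians above 0 in this comparison. Some of the 9 had errors wider than their values, such as Hspa1b (0.295, SE 1.349) and Atf3 (1.079, SE 1.150). Leaving out any 1 library kept the fitted values of Fos (0.93 to 1.87), Hmox1 (0.56 to 0.87) and Egr1 (0.29 to 0.50) above 0, and none of these passed.

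Against WT, which shares the same KO libraries, again none of 9 members passed in edgeR or limma-voom, beside 0.216% of all genes in edgeR. DESeq2 called 1, Fosb. An unadjusted p under 0.05 was found for Fosb, Egr1 and Dusp1 (7.77% of all genes), and Fosb and Egr1 had no overlap between groups (12.6% of all genes). Fosb had a log2 fold change of 1.90 (SE 0.46, adjusted p = 0.1253), higher in 3 of 3 KO libraries than in each WT library. Its adjusted p was 0.02176 without a filter on low counts, 0.005752 in DESeq2 and 0.04009 without KO replicate 3, and ranged from 0.005752 to 0.5038 over its 14 alternatives. Egr1 was at 0.47 (SE 0.16, adjusted p = 0.4068), Dusp1 at 0.67 (SE 0.31, adjusted p = 0.5973) and Hmox1 at 0.51 (SE 0.30, adjusted p = 0.7386). Of the 9 fitted values against WT, 7 were above 0 (50.4% of all genes), with a median of 0.52. Atf3 (-0.194, SE 1.126) and Hspa1b (-0.317, SE 1.341) were below 0.

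HT and WT cells at D2.5 were compared to see whether 1 lost copy of Tex15 moved these genes. None of the 9 members tested passed by any of the 3 tools, beside 0.00696% of all genes in edgeR, and 1 had an unadjusted p under 0.05 (3.4% of all genes). That was Fosb, at a log2 fold change of 1.06 (SE 0.46, adjusted p = 0.9998). Fosb and Dusp1 did not overlap between HT and WT (8.69% of all genes), with Dusp1 at 0.43 (SE 0.30, adjusted p = 0.9998), while Fos was at -0.73 (SE 0.55, adjusted p = 0.9998).

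The D2.5 libraries also differed in RNA of other testis cells. The 10 stromal and peritubular markers summed to 598 to 1066 CPM in KO, 368 to 576 CPM in HT and 435 to 675 CPM in WT, so KO lay above HT without overlap. Without Ptch1 the sums were 329 to 809 CPM in KO, 211 to 320 CPM in HT and 191 to 490 CPM in WT, a split made after the values were seen. All 9 of those markers that were tested had a fitted value above 0 in KO against HT (median log2 fold change 0.82), none passed, and 3 had an unadjusted p under 0.05. The collagen gene Col1a1 was 66 to 169 CPM in KO and 77.7 to 103 CPM in HT, and Dcn, a matrix proteoglycan, was 27.8 to 57.1 CPM in KO and 7.57 to 22.7 CPM in HT. Sertoli cell markers summed to 66 to 236 CPM in KO and 60 to 93.6 CPM in HT. Of 9 Sertoli markers tested, 7 had a fitted value above 0 in KO against HT (median log2 fold change 0.91). None passed, and 2 had an unadjusted p under 0.05. Gata4 was at 1.62 (SE 0.59, adjusted p = 0.5028), with overlapping ranges of 8.12 to 65.6 CPM in KO and 13.3 to 16.9 CPM in HT. Wt1 was 13.7 to 71.5 CPM in KO and 5.08 to 8.24 CPM in HT. Fshr, the receptor of follicle-stimulating hormone, was 3.34 to 7.21 CPM in KO and 0.182 to 2.75 CPM in HT. Amh was at 0 to 2.03 CPM in KO and 0 to 1.53 CPM in HT. Group means were lower in KO than in HT for Sox9 (9.68 and 11.3 CPM), Inha (1.47 and 3.27 CPM) and Gata1 (0.301 and 1.48 CPM). Lists of other cell types leaned less or the other way. Above 0 in KO against HT were 1 of 5 Leydig markers tested (median -0.457) and 4 of 7 endothelial markers (median 0.044). Of 3 macrophage and white blood cell markers tested, 0 were above 0 (median -0.158). The part of these cells in the early gene values was not tested, and in bulk RNA fewer cells of a type and less RNA per cell cannot be told apart.

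**Figure D2:**
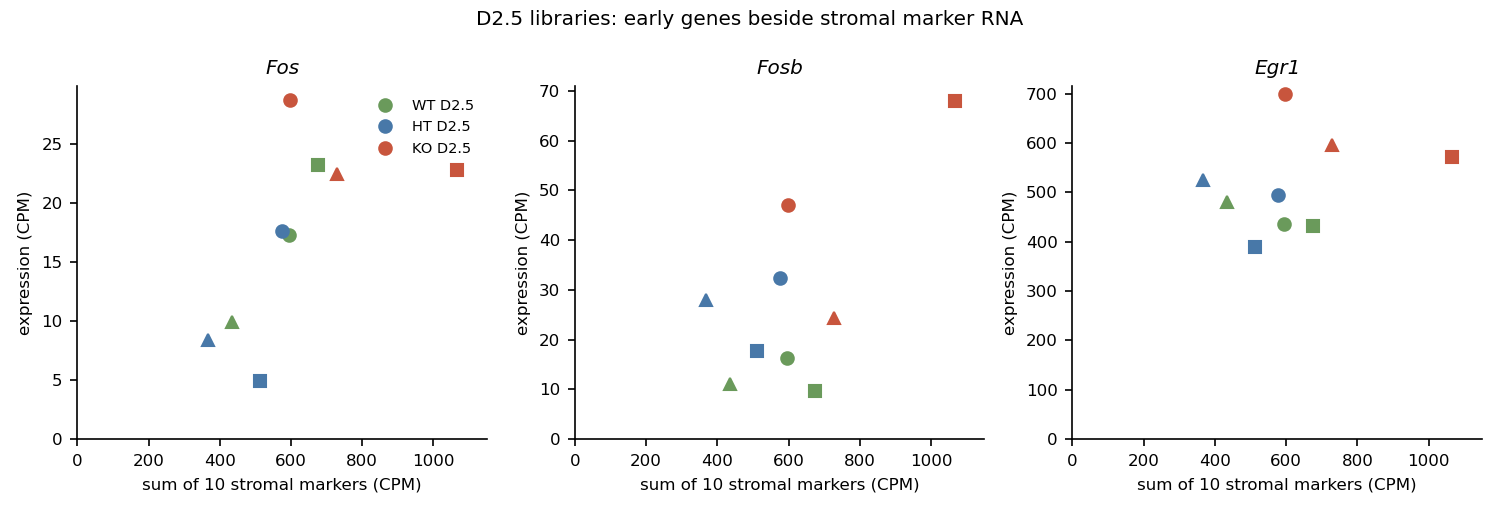
Levels of Fos, Fosb and Egr1 in the 9 D2.5 libraries (vertical axes, CPM) against the summed CPM of 10 stromal and peritubular markers (horizontal axes); colour gives the genotype and shape the replicate number (circle 1, square 2, triangle 3). KO libraries have marker sums of 598 to 1066 CPM and HT libraries of 368 to 576 CPM, and KO replicate 2 has both the highest sum and the highest Fosb (68.1 CPM).

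**Figure D3:**
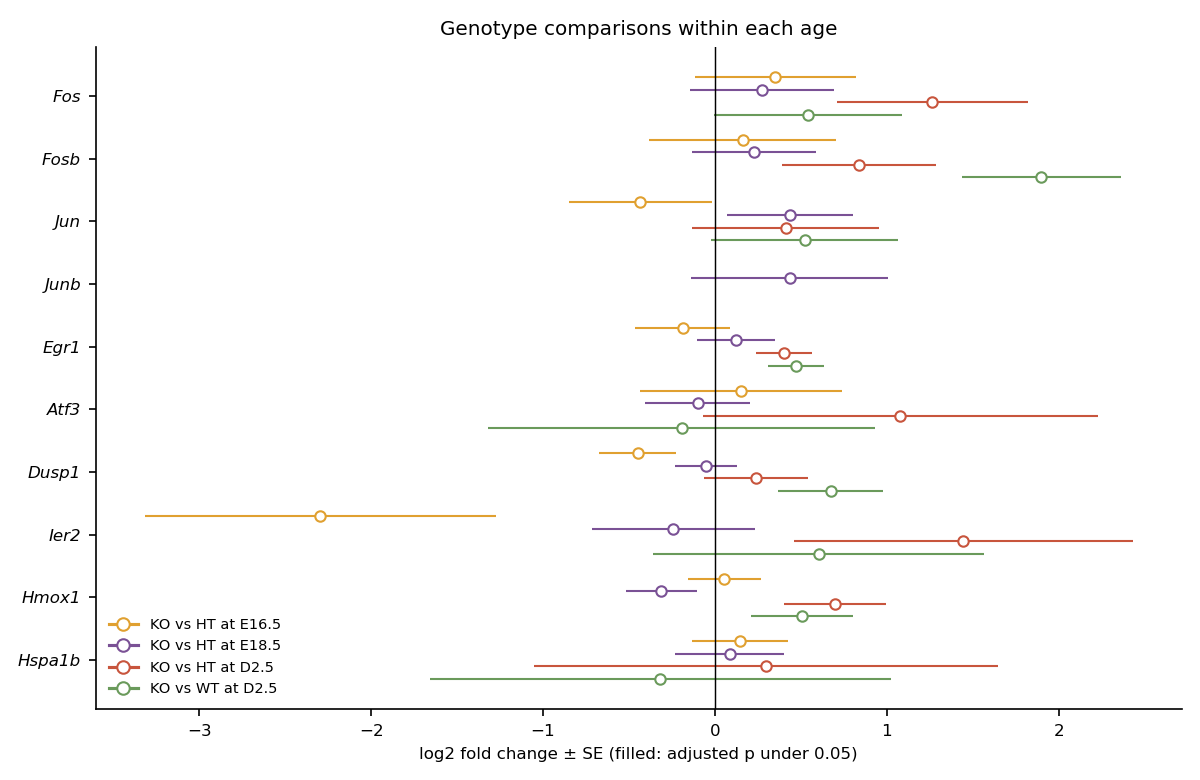
Log2 fold changes with their SE (horizontal axis) of the 10 genes in 4 genotype comparisons; open circles did not pass, and Junb was tested at E18.5 only. No circle is filled; Fosb in KO against WT (1.90) and Ier2 in KO against HT at E16.5 (-2.30) lie farthest from 0.

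Whether the KO effect itself differed between ages was tested as a contrast in the fit of the HT and KO libraries. None of 10 members passed by any of the 3 tools for E18.5 minus E16.5 (in edgeR 0 of 18815 genes, 0% of all) or for D2.5 minus E18.5 (in edgeR 0.0531% of all genes). Unadjusted p under 0.05 was found for 0 members in the former (0.829% of all genes) and for 1 in the latter (10.4% of all genes). That was Hmox1, whose KO effect was 1.01 higher at D2.5 than at E18.5 on the log2 scale (SE 0.35, adjusted p = 0.3223). For Ier2 the difference between E18.5 and E16.5 was 2.09 (SE 1.20, adjusted p = 1), and it was 0.15 without HT replicate 1 at E16.5.

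Changes with age were read within HT and within KO, and successive steps share the E18.5 libraries. From E16.5 to E18.5, Hmox1 was the 1 member of 10 that passed in HT, beside 13.2% of 18815 genes, and again the 1 member that passed in KO, beside 4.54% of genes. It fell by 1.10 on the log2 scale in HT (SE 0.25, adjusted p = 0.01023) and fell by 1.45 in KO (SE 0.25, adjusted p = 0.004915), and passed in all 13 alternatives of each. Hspa1b did not pass at this step, with -1.71 in HT (SE 0.58, adjusted p = 0.05398) and -1.78 in KO (SE 0.58, adjusted p = 0.07799), although its ages did not overlap. Hmox1 and Hspa1b were the 2 members without overlap in HT (52.4% of all genes), and Junb and Dusp1 joined them in KO (51.2%). Hspa1b passed in 6 of 13 alternatives in HT and in 2 of 13 in KO. The remaining fitted values had wide errors, such as Jun at -1.04 in HT (SE 0.51, adjusted p = 0.1624), Fosb at 1.03 in HT (SE 0.52, adjusted p = 0.1794) and Dusp1 at 0.93 in KO (SE 0.28, adjusted p = 0.06011). Ier2 was at -2.0 in HT (SE 0.85, adjusted p = 0.114) and at -0.16 without the high HT replicate 1. Between these ages the median log2 fold change of all genes was 0.11 in HT and 0.14 in KO; with scaling over genes and repeats together it was 0.02 in HT and 0.01 in KO. The shares of all genes that passed at this step depended on single libraries, with 561 to 5074 genes in HT and 56 to 1787 in KO when 1 was left out (fewest without replicate 1 at E16.5 in each, most without replicate 3 at E16.5 in each).

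From E18.5 to D2.5, 3 of 10 members passed in HT, beside 54.8% of 18815 genes, and 6 of 10 in KO, beside 55.2%. The members' share was thus near that of all genes in KO and lower in HT, a difference that was not tested. Egr1 rose by 2.85 on the log2 scale in HT (SE 0.28, adjusted p = 8.749e-08) and by 3.13 in KO (SE 0.28, adjusted p = 3.398e-08). Fosb rose by 1.64 in HT (SE 0.52, adjusted p = 0.01138) and by 2.26 in KO (SE 0.53, adjusted p = 0.001309). Both genes passed in all 13 alternatives in both genotypes. Without overlap between the ages were 4 members in HT (65.4% of all genes) and 6 in KO (64.9%). Over all genes the median was -0.51 in HT and -0.54 in KO, so Egr1 and Fosb rose while the median gene was lower.

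Fos, Hmox1 and Dusp1 passed in KO only, and their differences between the genotypes, tested above, did not pass (adjusted p = 0.7537, 0.3223 and 0.8904). Fos rose by 1.79 in KO (SE 0.58, adjusted p = 0.01327) and was at 0.81 in HT (SE 0.57, adjusted p = 0.2405). Hmox1 rose by 1.30 in KO (SE 0.25, adjusted p = 0.0002798) and was at 0.29 in HT (SE 0.25, adjusted p = 0.3328). Dusp1 rose by 0.84 in KO (SE 0.28, adjusted p = 0.01502), a call that ended without KO replicate 2 at D2.5 (adjusted p = 0.05649), and was at 0.55 in HT (SE 0.28, adjusted p = 0.1006). Jun was at 0.85 (SE 0.51, adjusted p = 0.1605) and Ier2 at 1.87 (SE 0.86, adjusted p = 0.0717) in KO. Jun passed in KO without replicate 3 at D2.5 (1.35, adjusted p = 0.03048) or without replicate 1 at E18.5 (1.63, adjusted p = 0.02092), and Ier2 without replicate 3 at D2.5 (2.32, adjusted p = 0.03732). Atf3 in HT was at -0.54 (SE 0.86, adjusted p = 0.6136) and rested on replicate 3 at D2.5: without it the value was -3.53 (adjusted p = 0.002778).

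Hspa1b went the other way. It fell by 1.77 in HT (SE 0.63, adjusted p = 0.02254) and fell by 1.54 in KO (SE 0.62, adjusted p = 0.04115). These calls ended when single libraries were left out, in HT without replicate 2 or 3 at D2.5 or replicate 1 or 2 at E18.5 (adjusted p up to 0.1047), and in KO without replicate 2 or 3 at D2.5 or any 1 replicate at E18.5 (adjusted p up to 0.1896). Age, the separate count tables and any batch that went with age cannot be told apart here. Of 10 stromal and peritubular markers, 6 were called higher and 1 lower from E18.5 to D2.5 in KO, beside 21.1% and 34.2% of all genes. In HT 2 were called higher and 1 lower, beside 21.4% and 33.4%, so the number called higher in HT was near the share of all genes. Markers of other cells moved at this step too, to be read beside the same shares of all genes. Of 15 germ cell markers, 3 were called higher and 8 lower in KO, and 3 and 7 in HT. Of 11 Sertoli markers, 4 were called higher and 1 lower in KO, and 1 and 0 in HT. The part of these markers in the age changes was not tested.

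**Figure D4:**
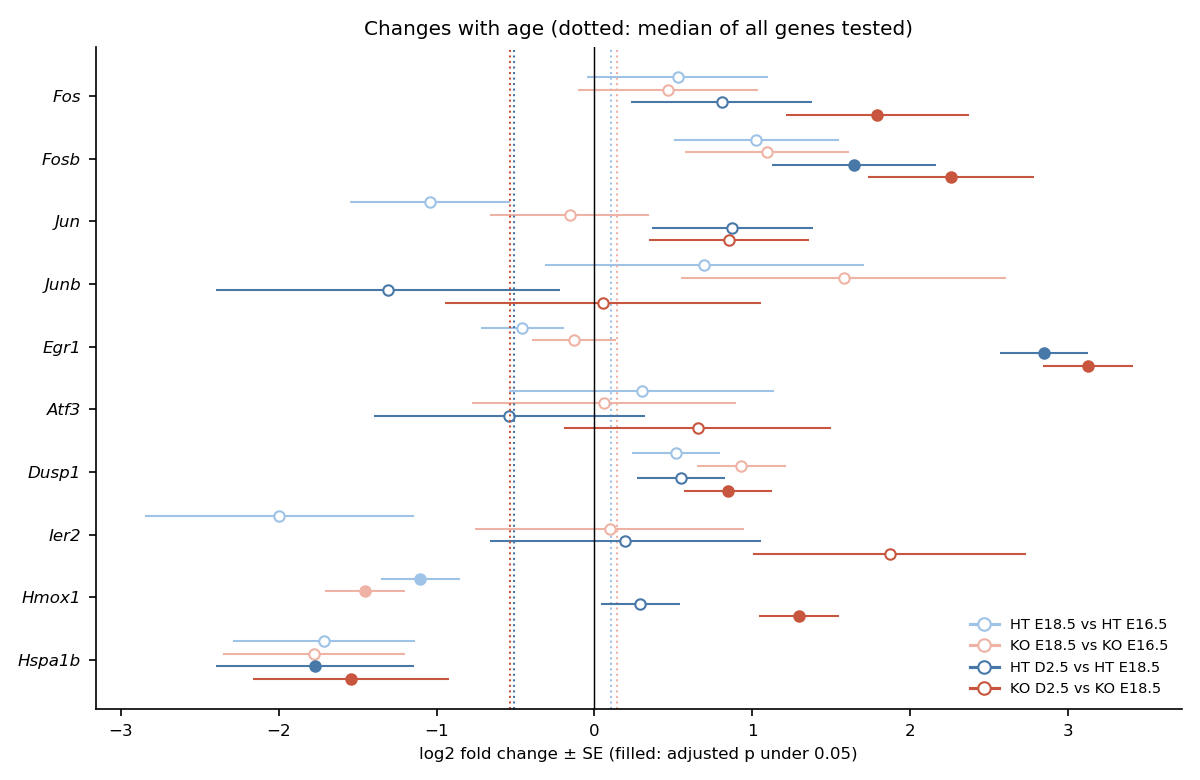
Log2 fold changes with their SE (horizontal axis) of the 10 genes from E16.5 to E18.5 (pale) and from E18.5 to D2.5 (dark) in HT (blue) and KO (red); filled circles passed, and dotted lines give the median of all genes in each comparison. Egr1 (2.85 and 3.13) and Fosb (1.64 and 2.26) stand right of 0 after birth, and Hspa1b stands left of 0 at both steps.

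Other genes of the same programmes were counted from lists of named genes. No member of the 5 lists passed in any genotype comparison within an age. In KO against HT at D2.5, 49.7% of all genes had a fitted value above 0. By list, 22 of 35 other immediate early genes (median 0.425) and 15 of 16 heat shock chaperones (median 0.305) did. So did 11 of 18 serum response and mitogen kinase regulators (median 0.134). The counts were 10 of 17 oxidative and metal stress genes (median 0.103) and 10 of 14 integrated and unfolded protein stress genes (median 0.172). Of 39 other immediate early genes tested, 9 rose and 7 fell from E18.5 to D2.5 in HT (median log2 fold change -0.21), and 11 rose and 5 fell in KO (median 0.55). Over all genes 21.4% rose and 33.4% fell at that step in HT and 21.1% and 34.2% in KO, with medians of -0.51 and -0.54; these are the values to read the lists against. Egr3 and Egr2, zinc-finger relatives of Egr1, both rose. Egr3 went from 2.47 to 2.97 CPM in HT at E18.5 to 98.6 to 119 CPM at D2.5 (log2 fold change 5.27, SE 0.54, adjusted p = 1.657e-07), and Egr2 rose by 3.44 (SE 0.43, adjusted p = 1.839e-06). Gadd45a, a growth arrest gene, rose by 4.07 (SE 0.38, adjusted p = 4.382e-08). Jund, the AP-1 subunit that is usually expressed without stimulation, fell by 5.38 (SE 0.43, adjusted p = 8.418e-09), from 44.7 to 62.7 CPM down to 1.03 to 1.63 CPM.

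Of 18 serum response and mitogen kinase regulators, 12 rose and 2 fell in HT (median 1.39), and 11 rose and 3 fell in KO (median 1.58). The kinase genes Mapk8 (1.97, SE 0.19, adjusted p = 5.466e-08) and Mapk9 (2.28, SE 0.26, adjusted p = 6.006e-07) and the inhibitor Spred1 (2.41, SE 0.23, adjusted p = 7.2e-08) rose in HT, while Mapk3, which encodes ERK1, fell by 2.99 (SE 0.25, adjusted p = 1.374e-08). From E16.5 to E18.5 0 of these 18 rose and 3 fell in HT: Mkl2, a cofactor of serum response factor (-1.85, SE 0.24, adjusted p = 0.001064), Etv5 (-2.85, SE 0.55, adjusted p = 0.004835) and Mapk9 (-1.06, SE 0.25, adjusted p = 0.01235).

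Most heat shock chaperones that passed were lower at the later age. From E16.5 to E18.5, 11 of 19 fell and 1 rose in HT (median -1.0, beside 0.11 for all genes), and 8 fell and 0 rose in KO (median -0.75, beside 0.14). Over all genes 8.39% fell and 4.81% rose in HT and 2.9% and 1.65% in KO. Cell type markers moved at the same step: of 15 germ cell markers 8 fell in HT (median -0.76) and 7 in KO (median -1.02), of 10 stromal and peritubular markers 4 rose and 1 fell in HT and 3 rose in KO, and of 9 endothelial markers 2 rose in HT. Their part in the chaperone values was not tested. Hsph1, an HSP110 chaperone, fell by 1.39 in HT (SE 0.20, adjusted p = 0.001105), from 687 to 1044 CPM down to 243 to 379 CPM. Hsp90ab1, the constitutive HSP90, fell by 1.51 (SE 0.26, adjusted p = 0.002541) and Hspa8, the constitutive HSP70, fell by 1.75 (SE 0.33, adjusted p = 0.004482). From E18.5 to D2.5, 12 fell and 2 rose in HT (median -0.79, beside -0.51 for all genes), and 7 fell and 4 rose in KO (median -0.63, beside -0.54). Over all genes 33.4% fell and 21.4% rose in HT and 34.2% and 21.1% in KO at that step, so the KO counts were near those shares. Chordc1, an HSP90 cochaperone, was among those that rose at the later step (1.57 in HT, SE 0.26, adjusted p = 4.241e-05) and fell at the earlier one (-1.36 in HT, SE 0.25, adjusted p = 0.004023).

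Oxidative and metal stress genes, the company of Hmox1, changed in both directions. From E16.5 to E18.5, 2 of 18 rose and 2 fell in HT, with Mt2, a metallothionein, higher by 2.29 (SE 0.64, adjusted p = 0.0263) and Prdx1, a peroxidase, lower (-1.14, SE 0.25, adjusted p = 0.009345). From E18.5 to D2.5, 6 of 18 rose and 6 fell in HT (median -0.16) and 6 rose and 4 fell in KO (median 0.23), where 54.8% and 55.2% of all genes passed. Nfe2l2, which encodes NRF2, rose by 1.95 in HT (SE 0.22, adjusted p = 4.747e-07), and Ftl1, a ferritin chain, fell by 3.60 (SE 0.21, adjusted p = 3.588e-10). Of 16 genes of the integrated and unfolded protein stress responses, 2 rose and 7 fell in HT at that step (median -1.19), and 2 rose and 8 fell in KO (median -1.44). Dnajb9, a chaperone cofactor of the endoplasmic reticulum, rose by 2.29 in HT (SE 0.20, adjusted p = 2.882e-08), and Ppp1r15a, the stress-induced phosphatase subunit, fell by 3.50 (SE 0.45, adjusted p = 2.784e-06).

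Differences between libraries of 1 group were largest for Atf3, Ier2 and Junb, which had low counts, and smallest for Dusp1, Egr1 and Hmox1. The SD within groups on the log2 scale was 0.33 for Dusp1, 0.34 for Egr1 and 0.35 for Hmox1, 0.65 to 0.79 for Fosb, Hspa1b, Fos and Jun, and 1.03 to 1.10 for Atf3, Ier2 and Junb. Single libraries were low or high for many members at once. The shares given with them are of genes with a mean log2 CPM of at least 3. KO replicate 3 was the lowest of its group for 7 of 10 members at E16.5 (57.6% of those genes), at E18.5 (26.8%) and at D2.5 (39.2%). KO replicate 2 at D2.5 was the highest for 6 (29.6% of those genes), and WT and HT replicates 2 at D2.5 were each the lowest for 6 (36.7% and 34.9%).

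**Figure D5:**
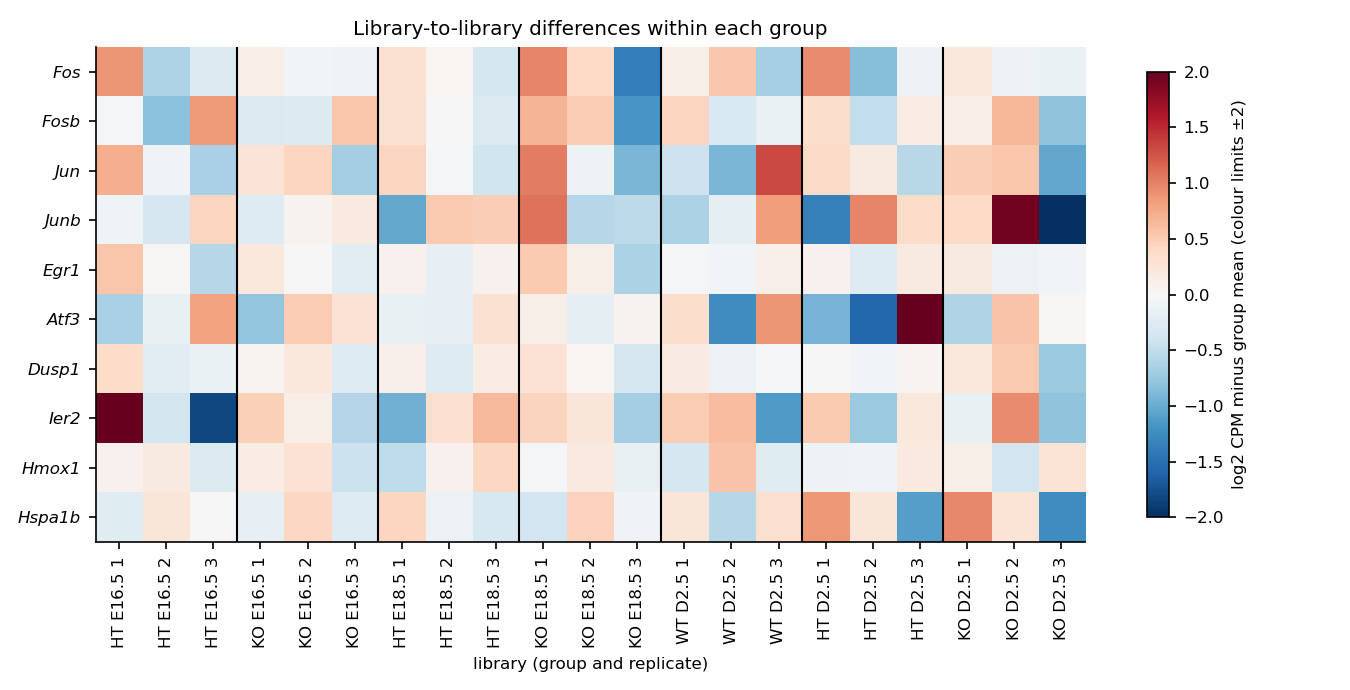
Log2 CPM of the 10 genes (rows) in the 21 libraries (columns, ordered by group and replicate) after the mean of each group was subtracted; red is above and blue below the group mean, with colours limited at 2. KO replicate 1 at E18.5 is above its group mean in most rows and KO replicate 3 at E18.5 is below it in most.

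With group means removed, the member most like Fos over the 21 libraries was Egr1 (Pearson r = 0.70), followed by Ier2 (0.58), Fosb (0.57) and Dusp1 (0.41), while Junb (-0.15) and Atf3 (-0.22) were not like it. Among 9656 genes with a mean log2 CPM of at least 3, Timm8a1 (0.82), Eid1 (0.76), Abhd17c, Tmem127 and Aldoa (each 0.75) had the highest r with Fos. For Hspa1b they were Uhmk1 (0.90), Ppp1r37, C1galt1c1 and Pkmyt1 (each 0.86) and Tex264 (0.85), and Jun was the closest member (0.52). These values describe libraries that share a depth and a sort per sample, and Hspa1b had at most 14 counts in each D2.5 library.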

How the data were processed

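RNA of Oct4-GFP sorted germ cells was extracted with a PicoPure kit and amplified and made into libraries with NuGEN Ovation kits, per the labels. The authors deposited read counts per gene and repeat name in 1 table per age, unnormalized, made with STAR, Bowtie, featureCounts and edgeR on mm9 per the submitters' processing notes; versions, strand setting and the treatment of reads with several matches are not stated there. Their 3 tables of repeat families were not used.

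Here, genes were tested with edgeR 4.0.16 (R version 4.3.3): genes were kept by filterByExpr on the groups, with at least 10 counts and a total of 15, scaled by TMM over the gene rows, and compared in quasi-likelihood fits by two-sided tests, with Benjamini-Hochberg adjustment over all genes tested and a threshold of 0.05. The SE is the absolute log2 fold change over the root of the F statistic. Each embryonic age had its own fit, D2.5 a fit of its 9 libraries, and age changes and differences of the KO effect came from 1 fit of the 18 HT and KO libraries. The alternatives tried were RLE factors, scaling over genes and repeats, dropping or tightening the filter, other sets of samples, DESeq2 1.42.0, limma-voom (limma 3.58.1), a block for the replicate number, and leaving out each library. The scripts were tested on simulated data. CPM used TMM factors over all 21 libraries, and log2 CPM a prior count of 2. Figures used Python 3.11.15 and matplotlib 3.10.9.

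The members, gene lists and marker lists were chosen with earlier results of these data known. Named genes were Tex15, the 10 members, up to 4 passing genes of each list by adjusted p, and the 5 genes most like Fos and Hspa1b within groups; Hspa1a was named after its values were seen, and single markers named beside the results come from the marker lists, and Ptch1 was set apart after its values were seen. The p-values measure the spread between libraries that the series calls biological triplicates.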

Additional observations from a re-analysis of the deposited data

How the results depend on the processing

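Of 1540 member values under 14 alternatives for each comparison within an age, 13 for each change with age and 19 for each difference of effects, 93 changed sign, none of them of a called change; 11 calls were lost and 22 gained. The number of members that passed stayed at 0 in each alternative for KO against HT at the 3 ages, HT against WT and both differences of effects. For KO against WT at D2.5 it was 1 with no filter on low counts and 1 in DESeq2, and 0 to 1 when single libraries were left out. For HT from E16.5 to E18.5 (1 member) it was 2 with scaling over genes and repeats, 2 with the stricter filter, 2 in DESeq2, 2 in limma-voom and 2 with the replicate block, Hspa1b being the added member in each, and 1 to 4 with single libraries left out (4 without HT replicate 3 at E16.5). For KO over the same ages (1 member) it was 3 in DESeq2 and 3 in limma-voom, Dusp1 and Hspa1b being added; the causes were not tested. KO against HT at E18.5 gave -0.01 (-0.009) for Fos in limma-voom, and with single libraries left out -0.25 to 0.71 for Fos and -0.23 to 0.79 for Jun. Atf3 in HT from E18.5 to D2.5 ran from -3.53 to 0.10 with single libraries left out. The Hspa1b call in KO from E18.5 to D2.5 ended with the stricter filter (adjusted p = 0.05865).

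Counts over all genes depended on the tool, the filter and single libraries. KO against HT at D2.5 gave 22 genes, 109 with no filter, 40 with the stricter filter and 126 in DESeq2; KO against WT gave 31, 110, 58 and 123; HT against WT gave 1, 4 with no filter and 2 in DESeq2. KO against HT gave 1 gene at E16.5, 6 in DESeq2 and 2 with the block, and at E18.5 389 genes, but 4 in the fit of the 18 libraries. From E16.5 to E18.5 HT gave 2483 genes, 3788 in DESeq2 and 5437 in limma-voom, and KO 855, 2135 and 2617, and 1375 with scaling over genes and repeats, which moved the share of higher calls from 36.3% to 21.8%; DESeq2 gave 47.1% in KO and 48.8% against 36.4% in HT. The difference of effects between D2.5 and E18.5 gave 10 genes, and 256 in DESeq2. Leaving out single libraries gave 197 (without HT replicate 2) to 392 genes for KO against HT at E18.5, 14 (without HT replicate 2) to 24 at D2.5, 19 (without WT replicate 3) to 30 for KO against WT, 561 (without E16.5 replicate 1) to 5074 (without E16.5 replicate 3) for HT from E16.5 to E18.5, 56 and 1787 for the same omissions in KO, and 4 (without KO replicate 3 at E18.5) to 30 (without KO replicate 2 at D2.5) for the difference of effects between D2.5 and E18.5. At E16.5, HT and KO libraries of replicate 1 and of replicate 3 deviated together (r = 0.52 and 0.70), and those of replicate 2 did not (-0.04). At E18.5 r was 0.08 to 0.20, and for KO and HT at D2.5 it was -0.01 to 0.02. The numbers were not taken as pairs in the main fits, so any pairing at E16.5 enters only through the replicate block. With the replicate block, 4 members passed in HT from E18.5 to D2.5 (3 without it) and 7 in KO (6 without it), Jun in KO being the one added there (0.90, adjusted p = 0.02936). Depth limits Junb, Atf3, Ier2 and Hspa1b at D2.5, where single libraries held 0 to 60 counts.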
